A study of Mus musculus with 9 samples.

Results

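Clustered distal KLF4 sites are places where KLF4 binding sites lie close together along a chromosome, away from H3K4me3 and PLAGL1 peaks. They were chosen by position alone. An autosomal KLF4 site was kept as distal when it shared no base pair with an H3K4me3 or PLAGL1 peak, distal sites were joined into a chain wherever the gap to the next one was at most 12.5 kb, and chains of at least 3 sites were kept. This gave 1206 sites in 345 chains, which is 11.8% of the 10229 distal sites and 5.71% of all 21130 KLF4 sites in the consensus set. Each chain carries the name of the gene at the nearest H3K4me3 peak whose annotated distance to a transcription start site (TSS) is at most 3000 bp; the name is a landmark, and no chain was shown to act on that gene. Distal here means without those peaks, since the KLF4 sites come with no annotated distance to a TSS. Of the 1206 sites, 88 (7.30%) lay within 3 kb of such a promoter peak without touching it.

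The cells were mouse periosteal stem/progenitor cells (PSPCs), the cells of the membrane around bone that build new bone after injury, grown from the mandibular angle of mice 8 weeks old. All libraries were CUT&Tag, in which an antibody guides a transposase to cut and tag DNA beside a bound protein or histone mark, made after 3 days of osteogenic induction with ascorbic acid at 50 µg/ml, beta-glycerophosphate at 5 mM and dexamethasone at 1e-07 M. KLF4 was profiled through a FLAG tag in Plagl1fl/fl control cells (n = 3), which carry the floxed allele without Cre, and in Ctsk-iCre;Plagl1fl/fl cells (n = 3), where Cre is driven from Ctsk, a gene of osteoclasts and of periosteal progenitors; other cells of that culture would keep Plagl1. The tagged KLF4 came from a Klf4-overexpression lentivirus at a multiplicity of infection of 10, so the sites are those of an added protein, and the same holds for HA-tagged PLAGL1 (n = 1, with an IgG library, n = 1), both in Plagl1fl/fl cells. H3K4me3 (n = 1) was profiled in Plagl1fl/fl cells whose treatment label names no virus. The vector names of the KLF4 libraries run from LV-Klf4 to LV-Klf9 while every title says KLF4; the titles were followed. Values per KLF4 library were not used here, because the authors' deposited table holds 1 fitted row per site, so depth is unknown, libraries that stand apart could not be looked for, and the targeted gene could not be checked. In the H3K4me3 list, 20 of 21 periosteal and skeletal progenitor genes had a promoter peak, as had 16 of 24 osteoblast genes, 12 of 14 macrophage and osteoclast genes, 7 of 10 adipocyte genes, 6 of 10 chondrocyte genes, 6 of 7 tendon genes, 4 of 10 endothelial genes, 4 of 10 Schwann cell and neuron genes and 0 of 10 skeletal muscle genes; what share other cells have in the culture was not tested.

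KLF4 is a zinc finger transcription factor that binds GC-rich sequence with a CACCC core, at promoters and at enhancers. It is known as a reprogramming factor, and as a regulator of epithelial and smooth muscle differentiation. H3K4me3 is a histone mark of promoters, and PLAGL1 is an imprinted zinc finger factor. Several binding sites of a factor within some kilobases are a known feature of enhancer clusters around genes with tight regulation, although a KLF4 site alone does not show that a region is an enhancer.

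The sequences under the chained sites were not read here, since the sites are on mm39 and no genome of that build was used. Shown in their place are the 250 bases before the TSS of genes that named the chain with most sites (Fosl2), the next longest in sites (Tnfrsf1b) and the chain with the second highest summed signal (Socs3), because the H3K4me3 peaks at these genes carried a KLF4 site themselves. They are from RefSeq on GRCm38.p6, printed 5′ to 3′ on the gene's own strand, and capitals mark the KLF4 core CACCC or its reverse complement GGGTG.
Fosl2, chr5:32136222-32136471, plus strand: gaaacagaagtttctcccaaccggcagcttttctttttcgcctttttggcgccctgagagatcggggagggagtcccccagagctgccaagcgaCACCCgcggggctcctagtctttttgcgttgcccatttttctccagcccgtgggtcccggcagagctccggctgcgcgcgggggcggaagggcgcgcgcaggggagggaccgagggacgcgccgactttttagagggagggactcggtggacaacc
Tnfrsf1b, chr4:145246871-145247120, minus strand: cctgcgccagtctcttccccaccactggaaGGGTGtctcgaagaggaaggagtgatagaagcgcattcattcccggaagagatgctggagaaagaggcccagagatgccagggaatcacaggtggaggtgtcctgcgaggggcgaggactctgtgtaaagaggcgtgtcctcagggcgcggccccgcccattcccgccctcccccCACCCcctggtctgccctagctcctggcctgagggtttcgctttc
Socs3, chr11:117969367-117969616, minus strand: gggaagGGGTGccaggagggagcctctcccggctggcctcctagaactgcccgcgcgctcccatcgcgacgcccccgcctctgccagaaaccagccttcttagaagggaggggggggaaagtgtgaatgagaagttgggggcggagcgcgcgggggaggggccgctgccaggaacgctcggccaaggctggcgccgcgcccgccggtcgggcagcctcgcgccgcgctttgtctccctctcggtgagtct
The window held 1 match at Fosl2, 2 at Tnfrsf1b and 1 at Socs3. Searched on both strands, the core stood in 61.9% of 365 promoters of 257 chain-naming genes, in 58.1% of 12156 promoters of genes with a promoter H3K4me3 peak and in 52.0% of all 32851 promoters in that table. A match is a description of the letters and not a binding site. One chain of 5 sites was named by the microRNA gene Mir199b, a member of a miRNA family studied in skeletal and cardiac cells. The span of that chain held an H3K4me3 peak (score 120) annotated to an intron of another gene, Dnm1, so here too the name is only a landmark. Mir199b is shown because more than 1 site of that chain had an unadjusted p under 0.05. Its 3p mature miRNA is shown with the seed, bases 2 to 8, in capitals (RefSeq, GRCm38.p6, chr2:32318524-32318545, plus strand).
miR-199b-3p: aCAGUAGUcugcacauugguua

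Most chains were short runs of 3 sites. There were 234 chains of 3 sites, 69 of 4, 27 of 5, 13 of 6, 1 of 7 and 1 of 8. A chain had a median span of 16128 bp (quartiles 11791 and 21145), from 2409 to 60342 bp. The 861 gaps within chains had a median of 6185 bp (quartiles 3180 and 9059), and 91 of them (10.6%) were under 1000 bp, a distance at which 1 broad region may have been called as separate sites. The share of distal sites that were chained ran from 5.56% on chromosome 18 (16 of 288) and 5.57% on chromosome 16 (20 of 359) to 17.6% on chromosome 17 (94 of 534) and 17.7% on chromosome 11 (143 of 807, in 41 chains). Sites next to the 12.5 kb limit resembled each other: in the authors' deposited table the 64 members whose gap to the site before was over 11.5 and up to 12.5 kb had a median mean log2 CPM of 5.10, and the 115 distal sites with a gap over 12.5 and up to 13.5 kb had 5.11. The latter include first sites of chains, as at Cd300a, so this does not compare chained with unchained sites.

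The Fosl2 chain was the longest and had the most sites. Fosl2 encodes a Fos-family subunit of AP-1, a factor needed in bone-forming cells. Its 8 sites lay at chr5:32269657-32329998 (mm39), 60342 bp, and along the chromosome their mean log2 CPM in the authors' deposited table was 4.87, 4.95, 6.99, 5.33, 5.43, 5.16, 4.41 and 4.66. The third site stood above the others and held 36.0% of the chain's summed CPM. The span surrounded the Fosl2 promoter: it contained the H3K4me3 peak (score 572), with a KLF4 site of mean log2 CPM 7.97 on it in the authors' deposited table, and PLAGL1 peaks at the promoter (score 133), in an intron (score 30) and in the 3′ UTR (score 40). Peak scores are the authors' own values for each peak.

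The Tnfrsf1b chain followed with 7 sites over 41018 bp at chr4:144926707-144967724. Tnfrsf1b encodes TNF receptor 2. Its sites had mean log2 CPM of 5.96, 5.10, 4.88, 4.64, 5.31, 5.90 and 5.46 in the authors' deposited table, so no site stood far above the rest, and the strongest held 21.1% of the sum, the lowest such share of any chain. The chain ended 3797 bp from the promoter peak (score 634) and had 1 intronic PLAGL1 peak (score 44) within its span.

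Chains of 6 sites were named by genes of varied function. Lrp1, which encodes an endocytic receptor of the LDL receptor family, named 6 sites at chr10:127413012-127452093 with mean log2 CPM of 6.80, 6.74, 6.71, 5.91, 5.64 and 5.99 in the authors' deposited table; the 3 sites with the lower coordinates were the stronger ones. This chain lay 2800 bp from the Lrp1 promoter peak (score 661), which carried a KLF4 site of mean log2 CPM 8.12, and its span held intronic PLAGL1 peaks with scores of 21 and 49 and an intronic H3K4me3 peak with a score of 62. Piezo1, a mechanically gated cation channel, named 6 sites at chr8:123249850-123288283 that spanned its promoter peak (score 815), and their mean log2 CPM ran from 5.31 to 7.20 in the authors' deposited table. A PLAGL1 peak with a score of 129 lay inside that span, upstream of the gene (distance to the Piezo1 TSS -5064 bp in the authors' annotation).

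Another 7 chains among the 12 with most sites had 6 each. Csrp1, which encodes a LIM-domain protein of the actin cytoskeleton, named a chain 37373 bp from its promoter peak with an intergenic H3K4me3 peak (score 628) in the span. Capzb, the beta subunit of the actin capping protein, named one at 38260 bp from a promoter peak with a score of 1490. Stk10 (a serine/threonine kinase), Gpx3 (a secreted glutathione peroxidase), Chd5 (a chromatin remodeller), Tomm20 (a mitochondrial import receptor) and Uqcc2 (an assembly factor of respiratory complex III) named the rest of these 7. Over them the strongest site held 23.1% (Stk10) to 31.1% (Csrp1) of the chain's summed CPM.

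**Figure D1:**
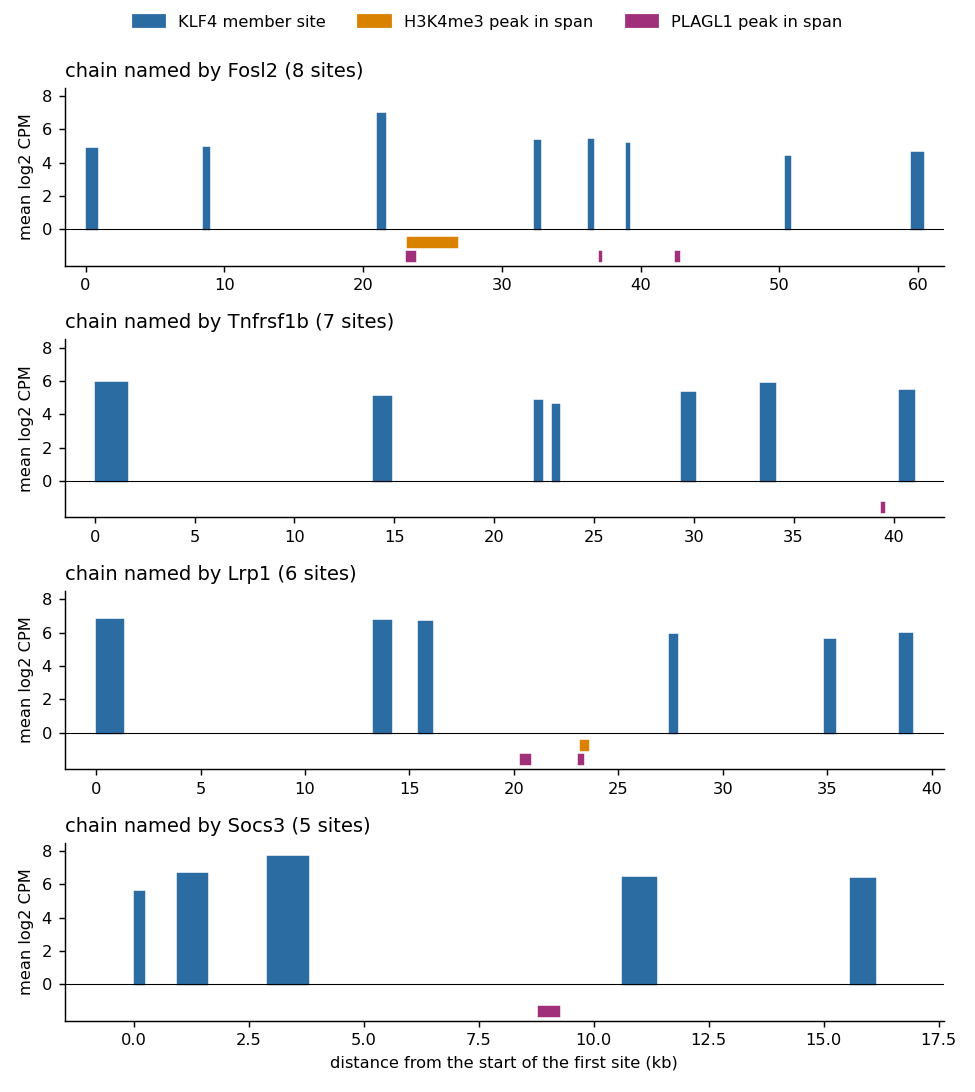
Maps of named chains: each bar is a KLF4 site drawn at its true width, at its distance in kb from the start of the chain's first site (x axis), with its mean log2 CPM as height (y axis), and marks below 0 show H3K4me3 and PLAGL1 peaks in the span. The 8 sites of the Fosl2 chain spread over 60342 bp on both sides of the promoter peak, while the 5 Socs3 sites lie within 16116 bp with a PLAGL1 peak between them.

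Chained sites had a higher median KLF4 signal than other distal sites, and per kb of site their median was above that of sites under H3K4me3 peaks as well. Their median of the mean log2 CPM was 5.22 (quartiles 4.76 and 5.80, range 2.40 to 8.45) in the authors' deposited table, against 4.66 (4.18 and 5.23) for the 9023 distal sites outside chains. Sites in pairs, with 4.96 (n = 2040), lay between chained sites and sites on their own, with 4.57 (n = 6983). KLF4 sites overlapping H3K4me3 (n = 10023) had a median of 5.52, and those overlapping only PLAGL1 (n = 549) had 5.31, and all these medians are descriptions of the authors' deposited values. CPM counts reads over the whole site, and chained sites had a median width of 521 bp, against 480 bp outside chains and 707 bp under H3K4me3. Per kb of site, the median signal was 74.8 CPM in chains (quartiles 56.9 and 95.8), 62.1 in pairs, 50.6 for sites on their own, 53.0 for all distal sites outside chains and 66.4 under H3K4me3. No test of these differences was made, because neighbouring sites share the same 6 libraries and are no replicates. The order by number of sites was shallow within chains, with medians of the mean log2 CPM of 5.17 in chains of 3, 5.28 in chains of 4, 5.38 in chains of 5 and 5.26 in chains of 6 in the authors' deposited table. In all, the 1206 sites carried 5.36% of the summed CPM of the consensus set.

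**Figure D2:**
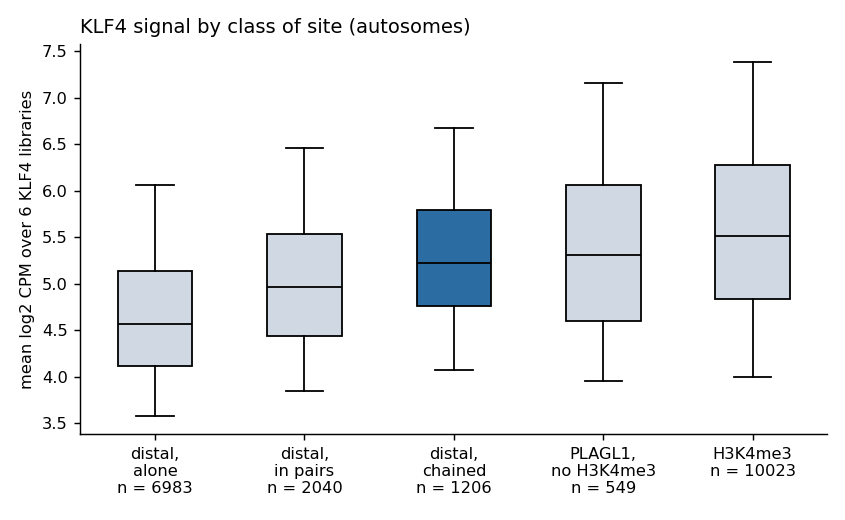
Box plots of mean log2 CPM over the 6 KLF4 libraries (y axis) for autosomal KLF4 sites by class (x axis, with n); boxes show the quartiles and the median, whiskers the 5th and 95th percentiles. The median is 5.22 for chained sites, 4.96 for pairs, 4.57 for sites on their own and 5.52 for sites overlapping H3K4me3.

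Summed over a chain, the signal was 138 CPM at the median (quartiles 102 and 186) and reached 764 CPM. That highest sum came from a compact chain of 3 sites at chr15:101882869-101886310, 3442 bp, named by Eif4b, a translation initiation factor, whose promoter peak was 95705 bp away. Its sites had mean log2 CPM of 7.28, 8.45 and 8.02 in the authors' deposited table, and the last 2 of them were the highest and the next highest of all members. Per kb covered it had 350 CPM, against a median of 75.8 over all chains. The nearest PLAGL1 peak lay 6409 bp from it, in intergenic sequence that the authors annotated to Krt8, a simple-epithelial keratin gene, so the naming by the nearest marked promoter and that annotation point to different genes.

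The Socs3 chain, with 531 CPM over 5 sites at chr11:117821838-117837953, came next. Socs3 encodes an inhibitor of cytokine signalling through JAK and STAT proteins. Its sites had mean log2 CPM of 5.61, 6.67, 7.69, 6.46 and 6.41 in the authors' deposited table, all above the member median of 5.22. The chain lay 19495 bp from the Socs3 promoter peak (score 1047), which carried both a KLF4 site and a PLAGL1 peak, and a further PLAGL1 peak (score 57) stood between its sites. The Septin9 chain, named by a filament-forming GTPase, had 500 CPM and held its promoter peak, of a low score of 196, within the span. Dagla (a diacylglycerol lipase, 472 CPM), Crip2 (a LIM-domain protein, 450 CPM), Lrp1 (496.5 CPM), Smim29 (401 CPM) and Piezo1 (388 CPM) completed the 8 chains with the highest sums. The strongest site of a Dot1l chain, named by the H3K79 methyltransferase gene, had a mean log2 CPM of 7.87 in the authors' deposited table and was next in signal among members after those of Eif4b.

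Among chains of at least 4 sites, the densest was named by Fam43a, with 4 sites in 5001 bp (0.80 sites per kb), and it lay 170144 bp from that gene's peak. Mir6546 (0.50 sites per kb), Tbc1d2, a RAB GTPase-activating protein gene (0.46), Glipr2 (0.42) and Pmf1 (0.42) followed. Sums in these dense chains ran from 85.7 CPM (Mir6546) to 289 CPM (Glipr2), and their order was not that of the density.

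Most chains contained neither mark within their span. An H3K4me3 peak lay between the sites of 66 chains (19.1%) and a PLAGL1 peak between those of 47 (13.6%); 24 chains had both and 256 (74.2%) had neither. In 49 chains (14.2%) the naming promoter peak was inside the span, as at Fosl2, Piezo1 and Id1. The distance from chain to naming peak had a median of 15446 bp (quartiles 3738 and 43408); 141 chains (40.9%) were within 10 kb of it, span included, and 33 (9.57%) were over 100 kb away. For such far chains the name says little: the farthest, 3 sites named by Alg11, lay 1111420 bp from its peak. The 345 chains took 334 different names, 330 chains were named by protein-coding genes, 11 genes (among them Tnfrsf1b, Lif, Trib1, Adam10 and Tns1) named 2 chains, and 4 chains had more than 1 peak at the shortest distance.

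At the median, chained sites lay nearer to PLAGL1 and H3K4me3 peaks than other distal sites did. The median distance to the nearest PLAGL1 peak was 55352.5 bp for chained sites and 146200 bp for distal sites outside chains. Within 10 kb of a PLAGL1 peak lay 209 chained sites (17.3%) and 706 others (7.82%). The distance to the nearest promoter H3K4me3 peak had a median of 23806.5 bp against 36372 bp, and 23.6% of chained sites (285) against 19.5% of the others lay within 10 kb of one. The ratio of the medians was thus larger for PLAGL1 than for promoter peaks. Sites in pairs, counted above among those outside chains, had medians of 88075.5 bp to PLAGL1 and 27204.5 bp to promoter peaks. Of the sites in pairs, 11.1% lay within 10 kb of a PLAGL1 peak and 22.8% within 10 kb of a promoter peak. Nearness to promoter peaks was thus much alike in pairs and chains. These distances are descriptions without a test, and the density of genes and of all KLF4 sites along the chromosome, which would bear on them, was not tested. The naming peaks were like other promoter peaks in strength, with a median score of 734 against 790 for all 13026 promoter peaks. A KLF4 site lay on 238 of the 345 naming peaks (69.0%, against 64.7% of all promoter peaks) and a PLAGL1 peak on 51 (14.8%, against 9.63%).

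**Figure D3:**
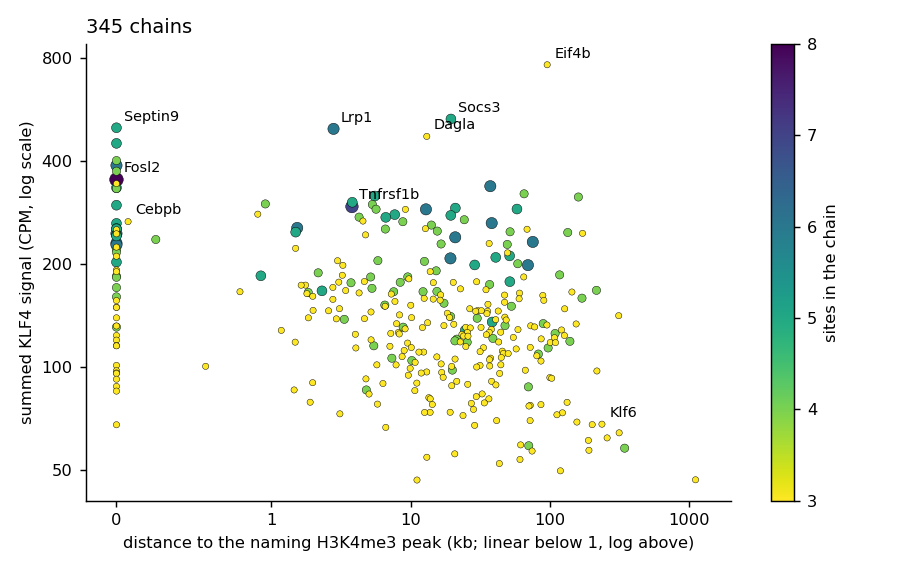
Each point is 1 of the 345 chains, by its distance in kb to the naming H3K4me3 peak (x axis, linear below 1 and log above) and its summed KLF4 signal in CPM (y axis, log scale), with the number of sites as colour. Chains whose span holds the naming peak stand at 0, and the Eif4b chain with 764 CPM is the highest point.

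Which kinds of gene named the chains was read from 18 gene lists for skeletal and regulatory programmes and for other cell types. The background was 334 naming genes among 12151 genes with a promoter H3K4me3 peak, or 2.75%. AP-1 and immediate early genes named chains most often of the lists with more than 4 marked genes, with 4 of 18 (22.2%). Those were Fos and Fosl2, which encode AP-1 subunits, Maff, a small MAF factor gene, and Dusp1, a MAP kinase phosphatase gene. In contrast, 0 of 20 marked periosteal and skeletal progenitor genes, 0 of 16 osteoblast and mineralisation genes and 0 of 24 WNT genes named a chain. With lists of this size and a background of 2.75%, a count of 0 differs by little from the background and is no result about a list. The 22.2% of the AP-1 and immediate early list rests on 4 names, was picked out of 18 lists and was not tested. The Schwann cell and neuron list, with 4 marked genes, had 1 name (25%).

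Of the other lists, 8 gave 1 to 3 names each. KLF and SP factors named 2 of 14, Klf6 and Klf10. Glucocorticoid response genes, relevant to the dexamethasone in the medium, named 2 of 18, Cebpb and Errfi1. Actin, SRF and Hippo-YAP genes named 3 of 29: Lats2, a kinase that inhibits YAP, Tns1, a focal adhesion protein that named 2 chains, and Myh9, non-muscle myosin heavy chain. BMP and TGF-beta genes named 2 of 27, Smad5, a transducer of BMP signals, and Id1, a BMP target. Extracellular matrix and integrin genes named 2 of 29 (Timp2 and Itga5), and craniofacial mesenchyme factors 2 of 31 (Twist2 and Foxf1). Among lists of other cell types, Nfatc1, an osteoclast regulator that other cells also use, was 1 of 12 macrophage and osteoclast genes, and Mbp, of myelin, was 1 of 4 marked Schwann cell and neuron genes. The adipocyte (7 marked), chondrocyte (6), tendon (6), endothelial (4) and pluripotency (2) lists gave 0, and no gene of the skeletal muscle list was marked.

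The chains named by AP-1 and immediate early genes differed in place and level. The Dusp1 chain, at chr17:26716430-26734143, surrounded its promoter peak (score 641) and held a PLAGL1 peak (score 31) upstream of the gene, at a distance to the TSS of -4158 bp. Its 3 sites had mean log2 CPM of 5.26, 5.80 and 5.97 in the authors' deposited table. The Maff chain lay 8804 bp from its peak, with mean log2 CPM of 6.05, 6.18, 5.62 and 6.29 in the authors' deposited table, all above the member median. The Fos chain, 47667 bp from the Fos peak, was weaker and even, with 5.16, 4.81, 5.10 and 5.09 there.

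Among the other chains of listed genes, Cebpb, a C/EBP factor of adipocyte and osteoblast differentiation, had the most uneven one. Its 3 sites had mean log2 CPM of 4.59, 6.10 and 7.44 in the authors' deposited table. In the same order they lay 8465, 2112 and 75 bp from its promoter peak, so signal was highest beside that peak. The strongest of them held 65.2% of the sum. The Id1 chain enclosed the whole gene, with an H3K4me3 peak (score 537) and PLAGL1 peaks with scores of 39, 89 and 40. Its 4 sites had mean log2 CPM of 6.06, 5.60, 6.04 and 5.31 in the authors' deposited table. The Klf10 chain lay 6640 bp from a promoter peak that held a KLF4 site of 8.48, while its own sites ran from 3.97 to 5.08 in the authors' deposited table. The Klf6 chain was 236634 bp from the Klf6 peak with sites of 4.49, 4.37 and 4.64 there. Both KLF-named chains thus stood below the member median of 5.22 at every site. The Twist2 chain, at 52.2 CPM in sum, was the weakest of the listed chains, and a PLAGL1 peak (score 40) lay within it.

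The comparison of KLF4 between the genotypes asked whether KLF4 binding at these sites depended on Plagl1. The threshold was an adjusted p under 0.05, from the authors' edgeR fit with Benjamini-Hochberg adjustment over all 21130 sites. Of the 1206 chained sites 0 passed it, against 10 of all sites (0.0473%). Only 4 of these 10 are among the 20801 autosomal sites, from which members were taken. With so few calls, a count of 0 is no result about chained sites. The lowest adjusted p among chained sites in the authors' deposited table was 0.192. At an unadjusted p under 0.05 there were 118 sites (9.78%, 95% Wilson interval 8.23 to 11.6), against 6.46% of all sites. That interval treats sites, neighbouring ones included, as independent, although all of them share the same 6 libraries. Whether a positive log2 fold change means more signal in control or in Plagl1-deficient cells is not stated with these values, so only signs are given. Positive changes made up 73 of the 118 (6.05% of members, against 3.40% of all sites) and negative ones 45 (3.73%, against 3.05%). Distal sites outside chains also had more positive than negative ones, with 4.64% and 3.00%, while sites overlapping H3K4me3 had 2.02% and 2.90%. No other count tool could be run on these values, and the labels do not say whether the 3 libraries of a group came from separate animals, so the p-values measure a spread that may be technical.

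Part of the gap to all sites is shared by distal sites in general: the share at an unadjusted p under 0.05 was 7.65% of distal sites outside chains and 4.92% of sites overlapping H3K4me3. When all sites were split by signal into 3 groups of equal size, chained sites and distal sites outside chains had shares of 10.2% and 6.43% in the lowest group, 8.46% and 8.25% in the middle group and 11.2% and 10.3% in the highest. Chained sites were spread over these groups as 21.1%, 44.1% and 34.8%, the others as 50.2%, 34.1% and 15.7%. In the middle and highest groups, which hold most chained sites, both classes lay close together. None of these shares was tested against another.

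The changes themselves were small. The median log2 fold change of the 1206 sites was 0.02, beside 0.03 for distal sites outside chains, -0.01 for sites overlapping H3K4me3 and 0.00 for all sites. There were 669 positive and 537 negative values, so 55.5% were positive, against 54.5% of distal sites outside chains and 50.3% of all sites. Their SD was 0.22, against 0.27 outside chains, and 37 sites (3.07%) had a change of more than 0.5 in either direction, against 6.98%. The approximate standard error of a site, computed from the fold change and F value of the authors' deposited table, was at the median 0.178 in chains and 0.226 outside, so the spread is near the error of a single site. The median size of a change in chains was 0.14 in either direction, and changes of this size were not detectable site by site at an adjusted p under 0.05.

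**Figure D4:**
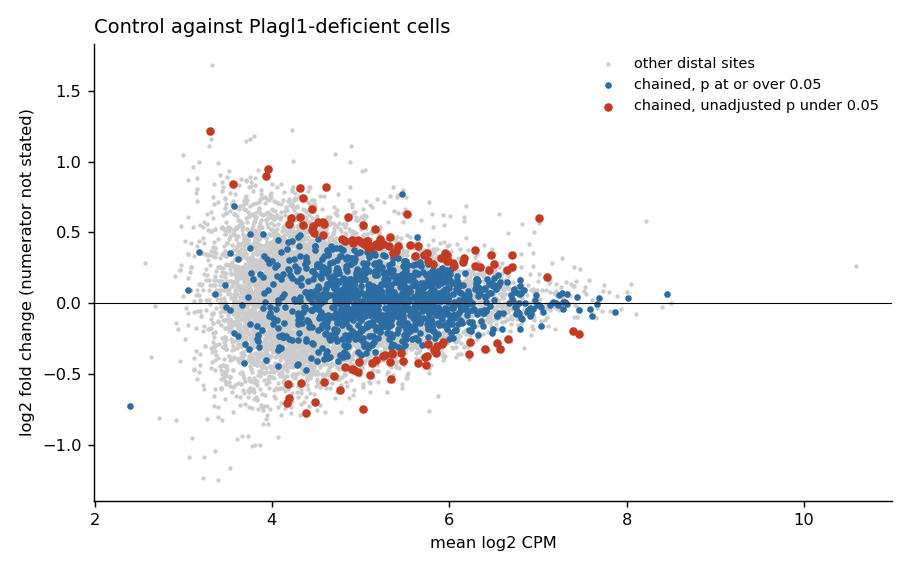
Log2 fold change between control and Plagl1-deficient cells (y axis, numerator not stated) against mean log2 CPM (x axis) for chained sites and for other distal sites, with the 118 chained sites at an unadjusted p under 0.05 marked. Values spread around 0 and more widely at low signal, and no chained site had an adjusted p under 0.05.

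The 5 sites with the lowest p in each sign came from 10 different chains. Among positive changes, a site of the chain of Arrdc2, an arrestin-domain gene, came first, with a log2 fold change of 0.63 (95% interval 0.32 to 0.95, p = 0.000136, adjusted p = 0.192, edgeR) at chr8:71285575-71286148 in the authors' deposited table. Sites of Dio3os, E2f2, Crip2 and Coil chains followed, with log2 fold changes of 0.82, 0.34, 0.38 and 0.95 there. Among negative changes the first was a site of the chain of Htra3, a secreted serine protease gene, at chr5:35848644-35849350, with -0.75 (-1.14 to -0.36, p = 0.000273, adjusted p = 0.29, edgeR) in the authors' deposited table. Sites of chains named by Lif, a cytokine of the IL-6 family (-0.54), Wfikkn2, an inhibitor of myostatin-type ligands (-0.43), Hspg2, the basement membrane proteoglycan perlecan (-0.33), and Hs6st1, a heparan sulphate sulphotransferase (-0.36), came after it in that table. None of these 10 passed the adjustment. The 5 sites with the highest signal hardly differed: the strongest Eif4b site had 0.06 (-0.07 to 0.20), the Dot1l site -0.06 (-0.22 to 0.10) and the strongest Socs3 site 0.04 (-0.13 to 0.20) in the authors' deposited table. This does not hold for strong sites in general: of chained sites in the highest signal group, 11.2% had an unadjusted p under 0.05.

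Few chains had more than 1 site at an unadjusted p under 0.05. At least 1 site with an unadjusted p under 0.05 stood in 102 chains (29.6%), and 11 chains had at least 2 of the same sign, while 3 had such sites in both signs. These 11 were named after their values were seen: Hspg2, Mir199b, Cep164 and Pdgfb with negative changes, and Cyth1, Dio3os, Coil, Zmynd11, Pag1, Osm and Cd300a with positive ones. The Hspg2 chain, at chr4:137201131-137215140, was the one with all its sites among them, at -0.35, -0.33 and -0.70 in the authors' deposited table (mean -0.46, SD 0.21). The 5 sites of the Mir199b chain, at chr2:32210019-32241042 and 933 bp from its peak, had -0.42, -0.47, -0.36, 0.04 and -0.07 in the authors' deposited table, so the negative values stood at the lower coordinates and the last 2 sites were near 0. In the Cyth1 chain, named by an ARF exchange factor gene, 3 of 5 sites were positive at an unadjusted p under 0.05, with 0.32, 0.26 and 0.74 there. The Dio3os chain, beside the antisense RNA of an imprinted deiodinase gene, had 0.84, 0.82 and 0.24 in the authors' deposited table, and its 3.57, 4.61 and 4.19 mean log2 CPM put all 3 sites below the member median. A PLAGL1 peak lay within 0 of these 11 spans, beside 13.6% of all chains, which is too few chains to set them apart. The largest positive and the largest negative change of any member, 1.22 and -0.77 in the authors' deposited table, belonged to the first and the last site of the same chain of 3, named by Zbtb7c. Both were weak sites, with mean log2 CPM of 3.30 and 4.39 there, below the lower quartile of members, 4.76.

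In chains named by listed genes, 72 sites in 20 chains had a median log2 fold change of -0.02. At an unadjusted p under 0.05, 1 was positive, the fourth Maff site (0.27, 0.03 to 0.50), and 2 were negative, a Smad5 site (-0.51, -0.88 to -0.13) and a Tns1 site (-0.30, -0.57 to -0.03), all from the authors' deposited table. The 19 sites of AP-1 and immediate early chains had a median of -0.01. At Fosl2 the 8 changes lay between -0.38 and 0.07 in the authors' deposited table, 6 of them negative, and every interval included 0. The Klf6 sites were positive throughout (0.38, 0.28 and 0.25) and the Klf10 sites negative throughout (-0.09, -0.32 and -0.14) in the authors' deposited table, with intervals that all included 0.

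**Figure D5:**
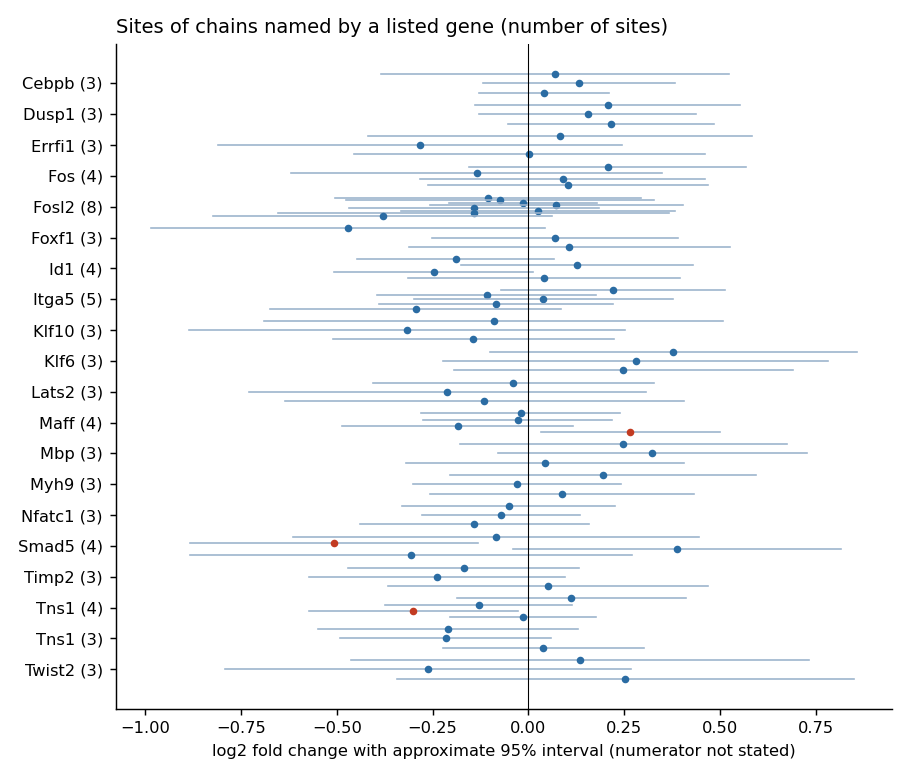
Log2 fold change (x axis, numerator not stated) of each site in the chains named by a listed gene (y axis, with the number of sites), with approximate 95% intervals as lines. Of the 72 sites, 1 positive and 2 negative ones, in red, have an unadjusted p under 0.05, and most intervals include 0.

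Sites of the same chain varied in both level and change. In 67 chains (19.4%) all sites had positive changes, in 32 (9.28%) all had negative ones, and 246 (71.3%) had both signs; of the 234 chains of 3 sites, 83 had the same sign throughout. The SD of the log2 fold change was 0.21 within chains and 0.08 between them (intraclass correlation 0.14), and the root mean square standard error of a single site, 0.196, was of about the size of the SD within chains. For the mean log2 CPM the SD was 0.67 within and 0.40 between chains (intraclass correlation 0.27). Likeness fell with distance over all distal sites. Pairs of neighbours up to 1 kb apart (n = 210 pairs) had a Pearson correlation of 0.68 in mean log2 CPM and of 0.27 in log2 fold change, and 58.6% had changes of the same sign. At over 1 and up to 12.5 kb (n = 1671) the values were 0.32, 0.14 and 53.1%, at over 12.5 and up to 100 kb (n = 4447) 0.18, 0.06 and 52.8%, and at over 100 kb (n = 3882) 0.09, 0.01 and 50.0%. These correlations describe sites measured in the same 6 libraries, and the nearest neighbours may be pieces of the same region.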

How the data were processed

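CUT&Tag libraries of KLF4-FLAG, PLAGL1-HA with IgG, and H3K4me3 were made by the authors from mouse PSPCs, and groups follow the sample titles. The submitters' processing notes list, without roles, edgeR 4.2.0, DiffBind 3.16.0, MACS3 3.0.2, HOMER 4.11.1, Bowtie2 2.5.4, SAMtools 1.21, GATK 4.5.5.0, Trim Galore 0.6.10 and deepTools 3.5.5, and the build mm39; for the handling of duplicates and the scaling between libraries, nothing was stated in the sources used. Per the file headers, the deposited KLF4 table gives each consensus site its mean log2 CPM and log2 fold change, the F score of the test and the p-value before and after adjustment. It credits edgeR, pools the 6 libraries and holds no value per library, so the authors' fit was used in place of a count test. Summed over all sites, 2 to the mean log2 CPM came to 1.03e+06, so CPM here is scaled to the reads in sites. Scaling between libraries sets where 0 lies for every fold change. The deposited peak lists give a score per peak, with the authors' annotation of gene and distance to the TSS. PLAGL1 (3463 peaks) was called against IgG, per the name of that list, and H3K4me3 has 16251 peaks. Only sites sharing at least 1 bp counted as overlapping.

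Chains, distances and CPM (2 to the mean log2 CPM) were computed in scipy 1.17.1, numpy 2.4.6 and pandas 2.3.3 under Python 3.11.15, figures were drawn in matplotlib 3.10.9, and the script was tested on simulated data. The standard error was the absolute log2 fold change over the square root of F, and 95% intervals used t quantiles with degrees of freedom solved from F and p (median 87.6). Coordinates are 1-based. Named chains were the 12 with most sites, the 8 with the highest summed CPM, the 5 densest with at least 4 sites and all those named by a listed gene; named sites were the 5 lowest p in each sign and the 5 highest in signal; 1 chain that this rule names is not reported here. The members and the gene lists were chosen with earlier results of these data known. All 333 list genes and 327 of the 334 naming genes matched the RefSeq table (GRCm38.p6), used for names and sequences only. Alternatives changed the gap, the number of sites, the overlap, the peak scores, the signal minimum, the naming distance and the adjustment.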

Additional observations from a re-analysis of the deposited data

How the results depend on the processing

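The number of members follows the rule's settings. With gaps of at most 5 kb there were 194 sites in 62 chains, with at most 25 kb 2627 sites in 674 chains, with at least 4 sites per chain 504 in 111, and with only sites at or above the median signal 376 in 110; requiring no peak within 1000 bp gave 1066 in 309, and letting only the upper 75% of peak scores keep a site out gave 1568 in 446. The median mean log2 CPM of 5.22 in the authors' deposited table became 5.32, 5.13, 5.31 and 5.76 under the first 4 of these settings, in that order; the last of them selects on signal itself and says nothing about the level of chained sites. The median log2 fold change stayed between 0.01 and 0.02 and the share at an unadjusted p under 0.05 between 8.79% and 11.3% in all 6. The count of members at an adjusted p under 0.05 was 0 in each, and also with adjustment over autosomal sites alone. There the lowest adjusted p of a member was 0.339. Of all autosomal sites, 1 was under 0.05 with that adjustment and 4 with adjustment over all sites. Naming by peaks within 1000 bp of a TSS kept the name of 321 of 345 chains. No paired analysis was possible because the deposited KLF4 table has no values per library; leaving out a library, other normalizations and a filter on low counts were not run for the same reason. Depth per library is unknown, so small changes at weak sites are limited to what the intervals show.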
